A study of Drosophila melanogaster with 3 samples.

Results

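Of the 6565 reproducible CG3281-GFP peaks in Drosophila melanogaster embryos, 480 (7.31%, exact 95% interval 6.69 to 7.97) lay at a one-way promoter with the summit at or downstream of the transcription start site (TSS). A promoter was called one-way when no protein-coding TSS of another gene on the opposite strand lay within 1000 bp upstream of it. The members were chosen by position alone: the summit had to lie within 500 bp of a protein-coding TSS, the nearest such TSS had to be one-way, and the summit had to lie at 0 to 500 bp on its transcribed side. The same rule with the summit upstream of the TSS took 1388 peaks, 1144 peaks lay at divergent promoters, and 3553 peaks lay more than 500 bp from any protein-coding TSS.

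CG3281 encodes a C2H2 zinc finger protein, and the 3 libraries are biological replicates of 1 group. In that group, chromatin from mixed-sex whole embryos aged 0 to 24 h, of a transgenic line carrying CG3281 with GFP at its C-terminus, was sonicated and precipitated with an antibody to GFP. The labels name no second genotype or treatment, so the comparisons are between classes of peaks and between replicates. Whole embryos mix all cell types and ages, and a peak cannot be assigned to any of them.

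Just downstream of a TSS lie the first exon, which usually begins with the 5′ untranslated region (UTR), and then often a first intron. Many Drosophila promoters hold an initiator element at the TSS itself, and RNA polymerase II frequently pauses a short way into the gene before it elongates. First introns of Drosophila genes often hold regulatory elements.

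Sequences at the summits of some strong members are given as examples. They are 30 bases centred on the summit, from the RefSeq release 6 (dm6) sequence, written 5′ to 3′ on the strand of the gene, with CG dinucleotides in capitals. The first 4 are among the strongest peaks, at Abcd3, which encodes a peroxisomal ABC transporter, ph-p, which encodes a Polycomb repressive complex 1 subunit, CG31612, and Ada2b, which encodes a histone acetyltransferase complex subunit. They lie at chrX:19751084-19751113 (plus strand), chrX:2137936-2137965 (minus), chr2L:21794975-21795004 (minus) and chr3R:8240014-8240043 (minus).
Abcd3: gagagggtgCGagCGagagaggaCGaagct
ph-p: aacttaataaatcaactcaataCGtatgtc
CG31612: ctaacaacttgaaagaatctattagtggtt
Ada2b: attgattttggtaaataggtagactatCGt
The next 4 are strong members whose 30 bases hold one of the CG-bearing words that were most frequent at these summits relative to their flanks (described with the sequence results). They are the peaks of RpL37A, a ribosomal protein gene, at chr2L:5070961-5070990 (plus), CycT, the cyclin of the elongation factor P-TEFb, at chr3L:17557584-17557613 (minus), raw at chr2L:8735738-8735767 (minus) and Hakai, which encodes an E3 ubiquitin ligase, at chr2L:19582294-19582323 (minus).
RpL37A: tttgaggtatcatgcttgtatCGagCGgCG
CycT: tgcataacaCGtCGcctggtgtCGCGgtta
raw: aacaaCGttgCGtataCGcctCGtCGctCG
Hakai: cagggctCGCGggCGCGgaCGtggcCGagg
Of the first 4 sequences, Abcd3 holds 3 CG and the others at most 1. RpL37A holds 3, CycT 4, and raw and Hakai 6 each. The last 4 were picked for holding a CG-bearing word, so this contrast is built in by the choice.

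Among all one-way promoter peaks, the 480 downstream-summit peaks made up 25.7% (23.7 to 27.7). The rule was also applied to the strongest 6565 regions of each replicate's own list. It found 454, 460 and 524 members in replicates 1, 2 and 3, a downstream share of 24.8%, 24.0% and 27.7% (25.5% ± 1.97, SD, n = 3). The pooled share thus lay within the range of the replicates. By chromosome arm, the downstream share of one-way peaks ran from 21.4% on X (69 of 323) to 29.4% on 2R (115 of 391), with 25.6% on 2L, 28.1% on 3L and 23.8% on 3R. The fourth chromosome had 1 member among 9 one-way peaks.

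Most summits lay close to the TSS. The median distance was 79.5 bp, the quartiles were 36 and 196 bp, and 271 of 480 (56.5%) lay under 100 bp. There were 175 members at 0 to 49 bp and 96 at 50 to 99 bp, and then 92 at 100 to 199 bp, 32 at 200 to 299 bp, 36 at 300 to 399 bp and 49 at 400 to 500 bp. Upstream of one-way TSSs the peaks were spread differently: 181 lay within 49 bp, but 390 lay at 100 to 199 bp and 320 at 200 to 299 bp. In the replicates' own lists the members' median distance was 86.5, 115 and 81.5 bp.

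**Figure D1:**
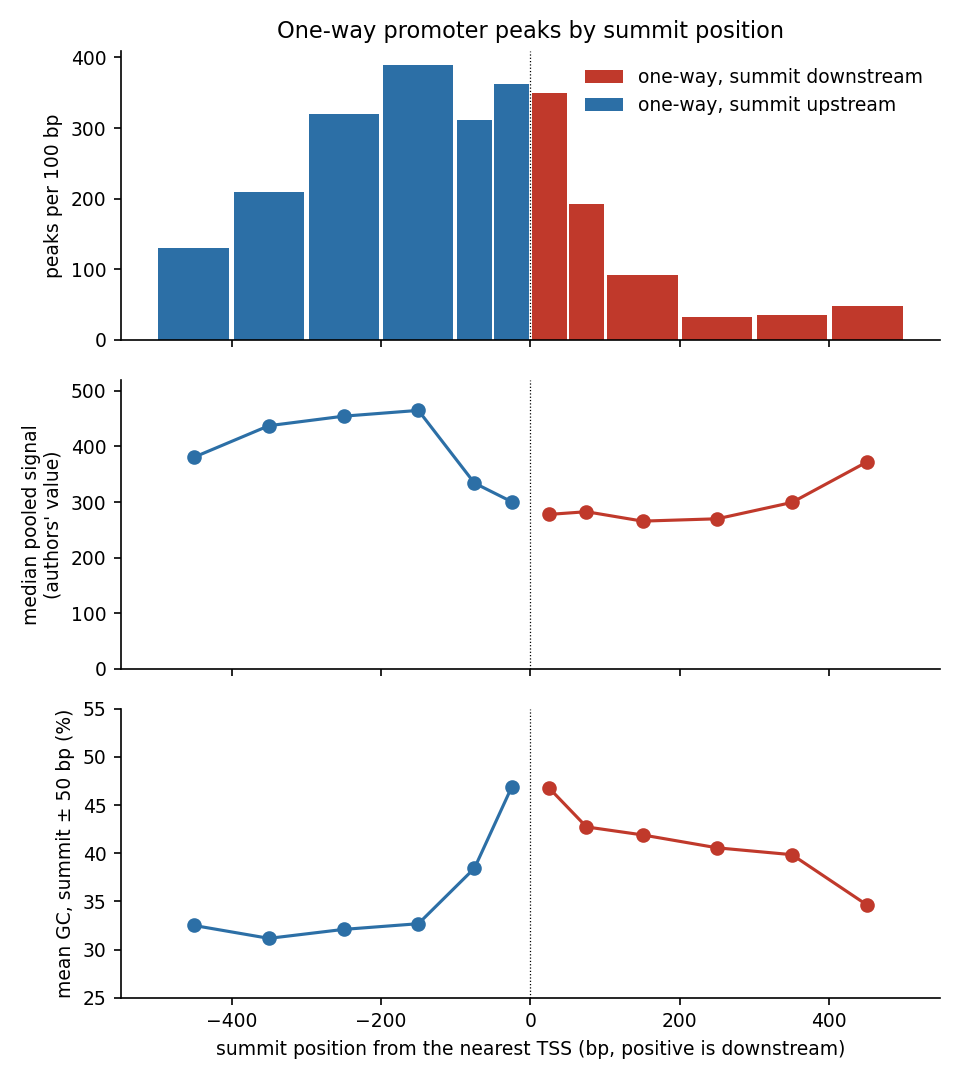
One-way promoter peaks by summit position. The top panel gives peaks per 100 bp, the middle panel the median pooled signal (the authors' value) and the bottom panel the mean GC content within 50 bp of the summit (%), each by distance from the nearest TSS in bp, with downstream-summit peaks in red and upstream-summit peaks in blue. Downstream, density is 350 peaks per 100 bp at 0 to 49 bp and 32 at 200 to 299 bp, while signal and GC content are alike on both sides of the TSS within 49 bp.

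The edge of the class at the TSS is not a break in the data. The 35 members at 0 to 9 bp had a median pooled signal of 320.5 and a mean GC content of 46.1%, against 317.2 and 46.6% for the 46 peaks at 1 to 10 bp upstream. Exactly at the TSS lay 4 members, at CG4497 (pooled signal 697.8), REPTOR (315.9), CG5114 (279.8) and CG8788 (210.2), and the nearest peak outside was at CG5787, 1 bp upstream (684.2). At the outer edge the last member, at CG14478, lay at 500 bp (249.1), and the nearest peak outside lay 507 bp from the TSS of InR, the insulin receptor gene (198.9). At the limit for an opposite TSS, CG11961 was inside at 1007 bp (226.8), and the ribosomal protein gene RpS7 was outside at 1000 bp (731.5).

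To see how stable the side was, each replicate's own summit was read for every member. All 3 lists had a region spanning the summit for 455 members, and 2 lists did for the other 25. The summits of 1 member had a median SD of 27.1 bp over the replicates, and all 3 lay downstream of the TSS in 371 of 455 (81.5%), while all 3 lay upstream in 6. That share was 63.6% for members at 0 to 49 bp, 87.5% at 50 to 99 bp, 85.7% at 100 to 199 bp and 100% from 200 bp on. Of upstream-summit peaks with 3 regions, 1241 of 1324 (93.7%) kept their side in every replicate. The 371 members downstream in every replicate had a median distance of 102 bp, a median pooled signal of 294.1 and a mean GC content of 42.5%. The pooled list holds the reads of the same libraries, so these counts are a description and not a test. For 7 members the same interval is listed again with another reproducible summit. Among these, at CG31729 (376.2, at 192 bp) and CG30020 (350.1, at 197 bp), both named after their values were seen, the strongest spanning region of every replicate had its summit upstream, at -7 to -36 bp, so the replicate values read there are those of the neighbouring summit. Intervals that only overlap a neighbouring peak are not counted in the 7, and replicate values can be shared there too. At milt the members at 51 and 250 bp have overlapping intervals, and both read 203 bp in replicate 2. Read at the nearest spanning summit instead of the strongest region, 374 of 455 members (82.2%) were downstream in every replicate.

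The strongest members were few and varied in place. The Abcd3 peak, on X from 19750637 to 19751385 with its summit 329 bp into the 5′ UTR, had the highest pooled signal of the class, 4446, rank 16 of 6565. In the replicates its signal was 46.2, 41.4 and 28.7 times the median of the replicate's own list, and its summit lay at 324, 332 and 327 bp. The ph-p peak, on X from 2137627 to 2138175 with its summit at 421 bp in the 5′ UTR, had a pooled signal of 3659 and replicate ratios of 33.7, 35.2 and 29.4. Replicate 3 gave the lowest ratio for both, and both lay above GstE13, the next member by pooled signal, in every replicate.

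Behind them came GstE13, a glutathione S-transferase gene, with a pooled signal of 2149 at 63 bp and replicate ratios of 20.6, 14.9 and 19.7. CG31612 followed with 2054 at 458 bp in intron 1 and ratios of 16.3, 19.2 and 16.9. The Ada2b peak had 1566 at 487 bp in intron 1. Its replicate summits ranged from 403 to 498 bp, a wider spread than at Abcd3. CG8128 (1381, at 485 bp), egh (1148, at 366 bp), bchs (1139, at 443 bp), wun (1136, at 403 bp) and rudhira (1129, at 250 bp) also had their summits in intron 1. egh encodes a glycosyltransferase, bchs a protein of autophagy and wun a lipid phosphatase that guides germ cells.

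The other strong peaks lay mostly in the first exon. RpL24 (1528, at 8 bp), RpS4 (1514, at 4 bp) and RpL30 (1179, at 21 bp) are ribosomal protein genes, and Nacalpha (1141, at 2 bp) encodes a subunit of the nascent polypeptide-associated complex. The summits nearest the TSS were not all on 1 side in the replicates: RpL24 had 7, -26 and 14 bp and Ufsp1, a UFM1-specific protease gene (1284, at 1 bp), had 16, -9 and -1 bp. For scny, which encodes a deubiquitinating enzyme (1044, at 1 bp), all 3 replicate summits lay upstream, at -11, -13 and -74 bp. Away from that edge, the summits of Trpm, a cation channel gene (1288, at 158 bp), lay at 166, 164 and 166 bp. Eip75B, an ecdysone-induced nuclear receptor gene (1281), and Trl, which encodes GAGA factor (1162), had their summits at 61 and 130 bp in the 5′ UTR. Sqor, which encodes sulfide:quinone oxidoreductase (1177, at 15 bp), has an annotated non-coding RNA gene within 100 bp of the summit. The 25 strongest members also take in CG18622, CG12316, CG14434, CG9399 and bgcn, with pooled signals from 1043 to 1125 and summits at 50 to 198 bp.

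**Figure D2:**
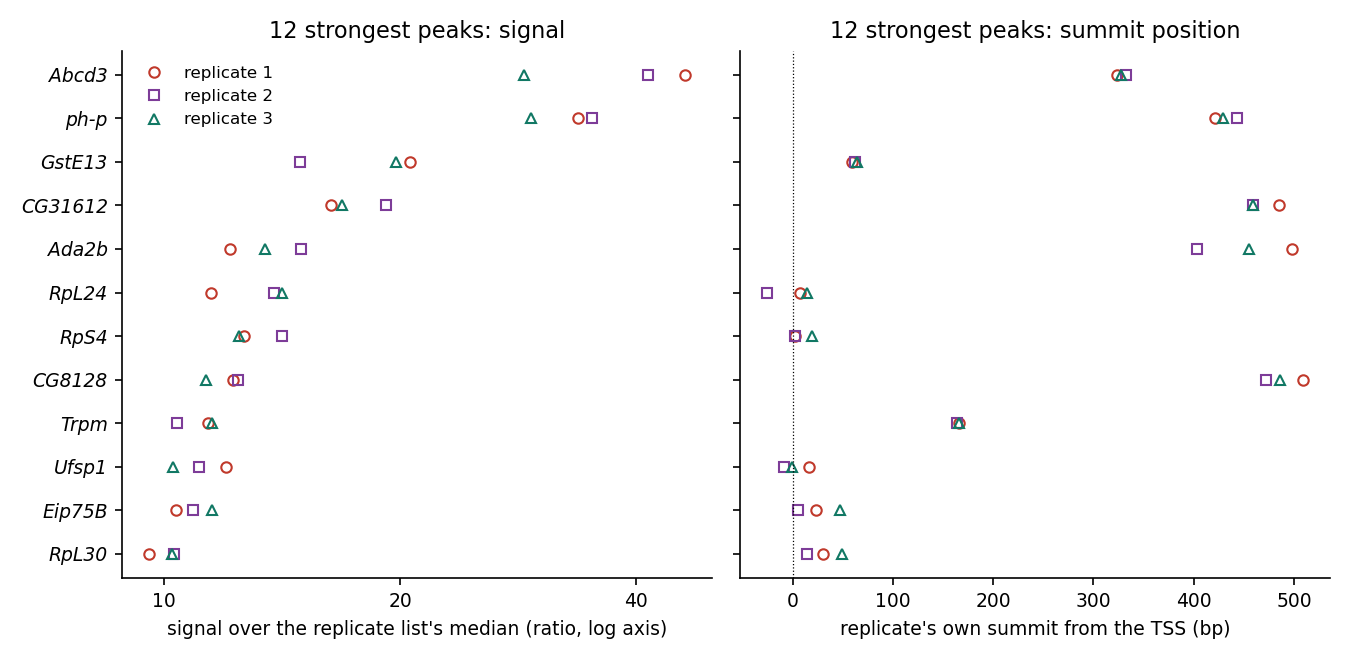
The 12 strongest downstream-summit peaks, in order of pooled signal. The left panel gives the signal in each replicate over the median of that replicate's list (ratio, log axis) and the right panel the replicate's own summit in bp from the TSS (dotted line at 0), with 1 symbol per replicate. Abcd3 and ph-p stand apart at ratios of 28.7 to 46.2, and the summits of RpL24 and Ufsp1 fall on both sides of the TSS.

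As a class, the downstream-summit peaks were weaker than the other promoter peaks. Their median pooled signal was 282.4 (quartiles 231.6 and 391.4), against 406.4 (270.9 and 705.1) for upstream-summit peaks, 395.5 for divergent promoter peaks and 318.9 for peaks away from promoters. The gap to upstream-summit peaks varied with distance from the TSS. Medians were 277.8 downstream and 300.5 upstream at 0 to 49 bp, and 265.7 and 464.8 at 100 to 199 bp. At 400 to 500 bp they were 372.2 and 380.5. In the replicates' own lists the median ratio to the list's median was 2.78, 2.54 and 2.60 for downstream-summit peaks, against 3.61, 3.49 and 3.70 for upstream-summit peaks. Every replicate's median of the downstream class lay below every median of the upstream class. The ratio averaged 2.64 ± 0.126 in the downstream class and 3.60 ± 0.108 in the upstream class (SD, n = 3), a difference of -0.958 ± 0.135. The exact paired sign-flip permutation test (two-sided) gave p = 0.25, the smallest that 3 replicates allow, and 0.333 after Benjamini-Hochberg adjustment over 12 comparisons of 4 measures with 3 classes. Against peaks away from promoters the difference was smaller, -0.244 ± 0.121, and it was negative in 3 of 3 replicates (exact p = 0.25, adjusted 0.333). Median width was equal in all classes within each replicate, because it is the commonest width of that list: 416, 420 and 430 bp in replicates 1, 2 and 3. The share of peaks at that width did differ. It averaged 81.9% ± 0.592 in downstream-summit and 61.3% ± 4.54 in upstream-summit peaks (SD, n = 3), a difference of 20.6 ± 4.16 percentage points, positive in 3 of 3 replicates (exact paired sign-flip permutation test, two-sided, p = 0.25, a comparison added after the values had been seen). In the reproducible set 332 of 480 downstream-summit peaks (69.2%) and 562 of 1388 upstream-summit peaks (40.5%) had the commonest width, 436 bp.

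Fewer downstream-summit peaks were held in every replicate. A peak was held when at least 50% of it was covered by one of the strongest 6565 regions of a replicate. In all 3 replicates 237 of 480 downstream-summit peaks were held (49.4%, 44.8 to 53.9), against 906 of 1388 upstream-summit peaks (65.3%, 62.7 to 67.8) and 59.4% of all reproducible peaks. A further 156 members were held in 2 replicates, 80 in 1 and 7 in none. This difference moves with signal: 173 members (36.0%) were among the weakest 25% of the reproducible set, against 258 upstream-summit peaks (18.6%), and 73 (15.2%) against 494 (35.6%) were among the strongest 25%. Within the strongest 25%, 82.2% of downstream-summit and 83.2% of upstream-summit peaks were held. In the next 25% by signal these shares were 95.8% and 86.9%, in the 25% after that 55.4% and 57.5%, and in the weakest 25% 5.20% and 12.02%. At like signal the downstream class was thus held less often in the weakest 25% and more often in 1 of the other 3 groups, and the shares were within a few percentage points in the remaining ones. Members held in both other replicates numbered 300, 287 and 280 when replicate 1, 2 or 3 was left out, fewer than the 480 because each such count asks for a region in 2 lists.

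**Figure D3:**
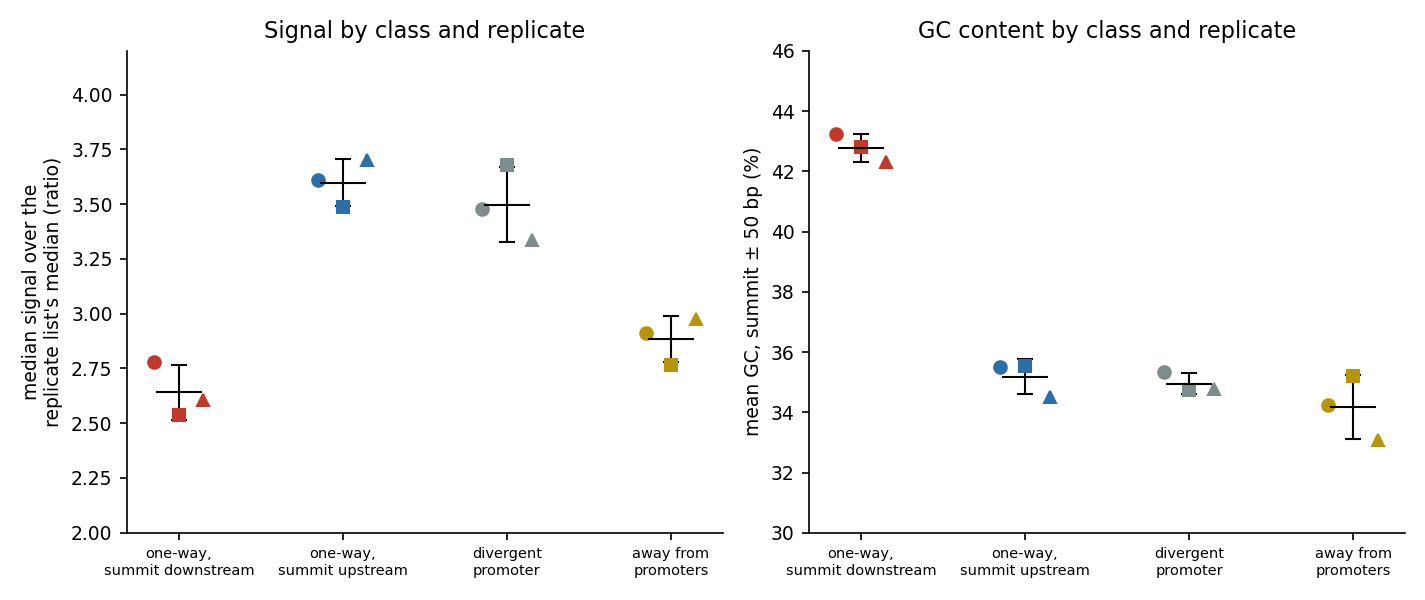
Signal and GC content by peak class in each replicate. Points are the class medians of signal over the replicate list's median (left, ratio) and the class means of GC content within 50 bp of the summit (right, %), as a circle for replicate 1, a square for replicate 2 and a triangle for replicate 3, with the mean (wide bar) and SD; neither axis starts at 0. Downstream-summit peaks have the lowest mean signal ratio, 2.64, and the highest GC content, 42.8%.

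The annotation at the summit changed with distance. It was read on the transcripts that start at the nearest TSS. Where these differed, the summit was counted as 5′ UTR first, then coding exon, then intron, so the intron share is a lower bound. The summit lay in a 5′ UTR in 346 members (72.1%, 67.8 to 76.1), in 344 of them in exon 1, in an intron in 113 (23.5%, 19.8 to 27.6), in 108 of them intron 1, and in a coding exon in 21 (4.38%). In the replicates' own lists these shares were 70.6% ± 2.04, 24.8% ± 1.63 and 4.53% ± 0.416 (SD, n = 3). Intron summits numbered 4 of the 271 members under 100 bp, 46 of the 124 at 100 to 299 bp and 63 of the 85 at 300 bp or beyond (74.1%). The intron members had a median pooled signal of 337.4, a median distance of 339 bp and a mean GC content of 35.7%, against 276.4 and 44.6% for the signal and GC content of 5′ UTR members. Of the intron members 61.1% were held in every replicate. The intron share depends on the reach of the rule: it was 10.8% within 250 bp of a TSS and 43.7% within 1000 bp.

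The far members differed from the near ones in several measures. The 85 at 300 bp or beyond had a median pooled signal of 344.2, against 280.8 for the 271 under 100 bp. They were held in every replicate in 58.8% of cases, against 45.8%, and 23 of them (27.1%) were among the strongest 25% of the reproducible set. Their mean GC content was 36.8%, against 45.3% ± 8.09 (SD over peaks) for the near ones. Among strong members the farthest were at aru (953.4, at 487 bp), Ada2b and CG8128, each in intron 1 with a GC content of 30.7%, 20.8% and 18.8%. Pcyt1, which encodes an enzyme of phosphatidylcholine synthesis (668.7, at 466 bp), Eip63F-1 (1033, at 465 bp), hng3 (888.2, at 431 bp), amn (629.2, at 441 bp) and chk (831.7, at 425 bp) came next beside CG31612 and bchs. Of these, amn and chk had their summits in the 5′ UTR.

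The nearest TSS is an annotated one, and which TSS the embryo used was not measured. The gene had another TSS in 343 of 480 members (71.5%), and in 240 one of them lay beyond the summit, so that the summit is upstream for that transcript. An opposite-strand TSS of another gene lay within 1000 bp on the transcribed side in 6 members. A non-coding gene lay within 100 bp of the summit in 18, of which 17 were annotated as ncRNA and 1 as snoRNA. Another reproducible summit lay within 500 bp in 56 members (11.7%), and 89 of the 446 member genes (19.96%) also had an upstream-summit peak at a one-way TSS.

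The base composition at the summit differed between the classes. GC content within 50 bp of the summit averaged 42.9% ± 9.30 (SD over peaks) in downstream-summit peaks, against 34.8% ± 10.5 in upstream-summit peaks, 34.8% in divergent and 33.6% in the peaks away from promoters. The summit was richer in GC than its own flanks, centred 500 bp to either side, in 262 of 480 downstream-summit peaks (54.6%), against 343 of 1388 upstream-summit peaks (24.7%). In the replicates' own lists the means were 43.2%, 42.8% and 42.3% for downstream-summit peaks. They averaged 42.8% ± 0.465 in the downstream class and 35.2% ± 0.580 in the upstream class (SD, n = 3), a difference of 7.60 ± 0.296 percentage points, positive in 3 of 3 replicates (exact two-sided paired sign-flip permutation test, p = 0.25, adjusted 0.333). The difference had the same sign in all 4 groups by signal, with 37.8% against 31.7% in the strongest 25% and 43.5% against 38.5% in the weakest.

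The difference in GC content depended on the distance from the TSS. Distance ranges were set after the values had been seen. At 0 to 49 bp the classes had 46.4% ± 0.540 and 46.7% ± 0.825 (downstream and upstream, SD, n = 3), a difference of -0.220 ± 0.311 that lay within the spread between replicates (exact paired sign-flip permutation test, p = 0.5). At 50 to 99 bp the difference was 3.34 ± 0.923 percentage points, at 100 to 299 bp it was 9.60 ± 0.599, with 42.5% ± 0.932 downstream and 32.9% ± 0.538 upstream, and at 300 to 500 bp it was 4.69 ± 0.704. In these 3 ranges it was positive in 3 of 3 replicates (exact p = 0.25, adjusted over the 4 ranges 0.333).

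The members' composition was also set beside their own flanks and beside TSSs with no peak, by distance. The 271 members under 100 bp had 45.3% at the summit and 41.4% in the flanks, and the summit was the richer in 61.3% of them. The 124 at 100 to 299 bp had 41.6% at the summit and 40.7% in the flanks. The 85 at 300 bp or beyond had 36.8% at the summit against 42.7% in the flanks, and the summit was the richer in 28.2% of them, so that a dip in GC content was present in these far members and not in the near ones. Over 11104 one-way TSSs without a peak, read at the members' own distances, GC content averaged 43.2% for the distances under 100 bp, 45.2% for 100 to 299 bp and 45.7% for 300 bp or beyond. Relative to these TSSs the 175 members at 0 to 49 bp were richer in GC, with 46.8% against 43.3%. The 96 members at 50 to 99 bp were not, with 42.7% against 43.1%. The members from 100 bp on were poorer, most of all the 49 members at 400 to 500 bp, with 34.6% against 45.5%.

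The TSSs of the classes were also compared at fixed places, whatever the distance of the summit. From 30 to 130 bp downstream, GC content averaged 42.9% at the members' TSSs, 44.2% at the TSSs of upstream-summit peaks and 43.0% at the TSSs without a peak. From 240 to 140 bp upstream, the means were 37.0%, 35.8% and 38.8%. At upstream-summit peaks the summit was poorer in GC than its flanks, with 34.8% against 43.1%.

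**Figure D4:**
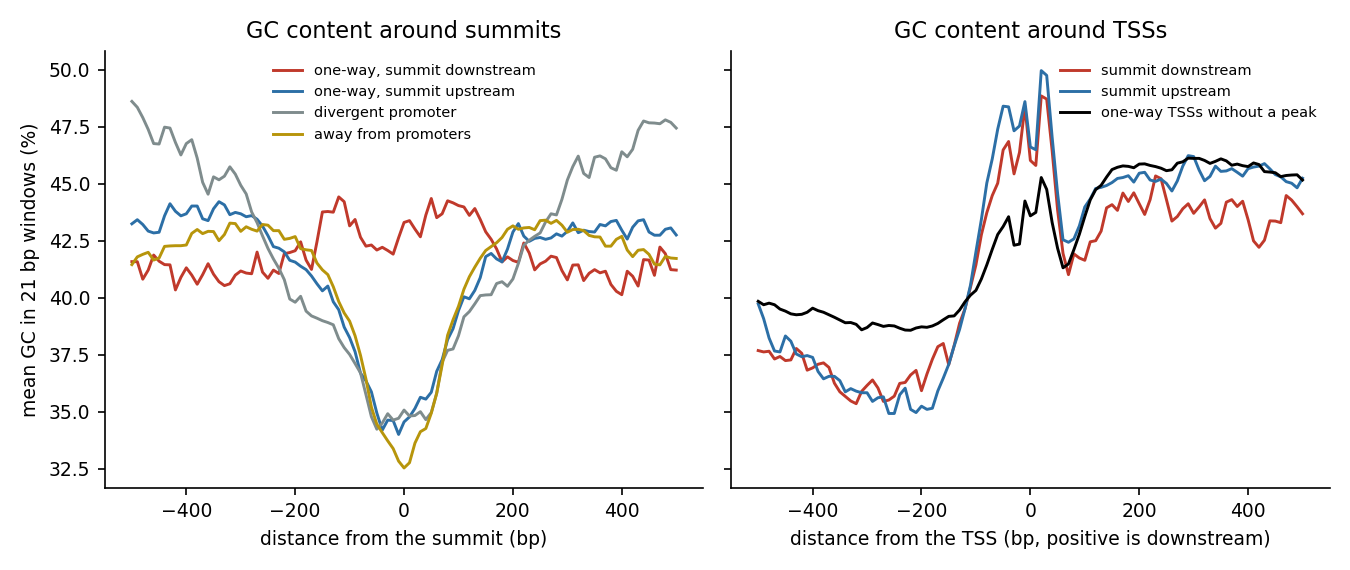
Mean GC content (%, in 21 bp windows) around summits by peak class (left) and around one-way TSSs (right, positive is downstream), by distance in bp; the axis does not start at 0. Upstream-summit, divergent and distant peaks dip at the summit. The mean over all downstream-summit peaks, 42.9% within 50 bp, shows no dip, although the 85 members at 300 bp or beyond do dip, to 36.8%, which this mean does not show.

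Words of 6 letters and known motifs were counted on both strands within 50 bp of the summit. These windows were not matched for distance from the TSS between the classes. They hold the TSS for the 175 of 480 members and the 181 of 1388 upstream-summit peaks that lay within 49 bp of it. Of the 20 words with the highest ratio to the flanks, among words in at least 5% of member windows, 19 hold a CG, against 185 of all 644 words counted. The first was CACGTC, in 5.21% of member windows, 1.56% of flanks and 1.66% of upstream-summit windows. CGAGCG stood in 48 of 480 member windows, 3.33% of flanks, 2.81% of upstream-summit windows and 4.24% of windows at the members' median distance from all promoters, and CGAACG in 48 windows, 3.85%, 2.59% and 4.60%. These words were picked for being frequent in member windows and rare in the flanks. Their lower shares in the flanks follow from that choice, and it also favours lower shares in the other windows, so these values are no test. CGAGCG lies at the summits of Abcd3, RpL37A and raw in the sequences above, and CACGTC at those of CycT and Hakai. All of these but Abcd3 were picked for holding such a word. None of the corresponding 20 words of the upstream class holds a CG, but only 26 of all 499 words counted there hold one. A and T only are held by 7 of these 20, and the share over all words was not counted.

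Of 10 motifs, the TATA box TATAAA had the largest difference. It was in 11.0% of member windows, against 23.2% of upstream-summit, 22.99% of divergent and 22.57% of distant windows. It stood in 13.3% of the members' flanks and 11.0% of all promoters at the members' median distance. In the replicates it was in 10.6% ± 1.31 of downstream and 22.3% ± 0.468 of upstream windows (SD, n = 3), a difference of -11.7 ± 1.04 percentage points, negative in 3 of 3 (exact paired sign-flip permutation test, two-sided, p = 0.25, adjusted over 10 motifs 0.25). The initiator core TCAGT was in 22.7% of member windows, 17.0% of upstream-summit windows and 17.4% of promoters at the members' median distance, with a replicate difference of 3.20 ± 1.87. These sets of windows differ in how often they hold the TSS, where the initiator lies, and motif shares at like distance were not tested. The E-box CAGCTG was in 6.25% of member and 4.76% of upstream-summit windows, with a difference of 1.68 ± 0.789. CACACACA was in 2.50% and 1.37%, TTTTTTTT in 3.33% and 6.27%. The DRE element TATCGATA was in 0.833% and 1.66%, the GAGA repeat GAGAGAG in 0.833% and 2.09% (1.67% ± 0.342 and 2.59% ± 0.302 in the replicates), the GATA site AGATAAG in 0.833% and 2.16%, and the Zelda site CAGGTAG in 1.04% and 0.144%. GGTCACAC had no steady direction, with 1.25% and 1.37% in the reproducible set but 1.59% ± 0.108 and 1.16% ± 0.186 in the replicates, where it was the higher in members in 3 of 3. Each of these 6 to 8 letter motifs other than TATAAA and CAGCTG stood in at most 16 member windows. A match is only a run of letters and does not show that a factor was bound.

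Since TCAGT and CGAACG are also letters of core promoter elements, they were read at the members' TSSs themselves, a choice made after the words had been seen and without a test. TCAGT lay between -5 and 7 bp from the TSS in 80 of 471 member TSSs (17.0%), in 206 of 1277 upstream-peak TSSs (16.1%) and in 12.6% of one-way TSSs without a peak. The pause button, a 7-letter element given as 8 spellings that include GCGAACG, lay on the sense strand at 10 to 50 bp in 40 member TSSs (8.49%, 6.14 to 11.4), in 7.91% of upstream-peak TSSs and in 4.43% of those without a peak. TATAAA between -40 and -20 bp was in 3.40%, 3.76% and 7.75%. On all 3 elements the TSSs of both peak classes lay close together and apart from the TSSs without a peak.

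The 480 peaks named 446 genes, 4.62% of the 9655 protein-coding genes with a one-way TSS, and the upstream-summit peaks named 12.6%. Against this background, 14 lists of genes were counted with no test. The cytosolic ribosomal protein genes had the highest share: 13 of 42 (31.0%, exact interval 17.6 to 47.1) had a downstream-summit peak, and 17 (40.5%) had an upstream-summit peak. Their summits lay near the TSS, at a median of 28 bp. Beside RpL24, RpS4 and RpL30, the RpL37A peak had a pooled signal of 944.3 at 19 bp. The other members of this list had lower signals, the lowest 198.7. The mitochondrial ribosomal protein genes had 0 of 16 (up to 20.6%).

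Chromatin and insulator protein genes had 5 of 23 (21.7%, 7.46 to 43.7), against 9 with an upstream-summit peak. The strongest 4 were ph-p, Trl, lola, a BTB zinc finger gene (333.3, at 73 bp), and the Polycomb group gene Su(z)2 (283.1, at 30 bp). Nuclear receptor and ecdysone response genes had 4 of 25 (16.0%), and as many upstream. They were Eip75B, Hr78 (952.7, at 106 bp), Eip63E (536.7, at 292 bp) and ftz-f1 (234.3, at 24 bp). The Hr78 peak was held in 1 replicate only, and its replicate summits lay on both sides of the TSS, at 39, -28 and 166 bp. Replicate 1 had no region spanning the Eip63E summit. For both lists the interval reaches down near the background of 4.62%.

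Other lists had lower shares. Cytoskeleton genes had 4 of 27 (14.8%), led by sqh, the myosin regulatory light chain gene (733.2, at 44 bp), with the filamin gene cher (304.8, at 36 bp), the profilin gene chic (274.1, at 10 bp) and ena (260.4, at 69 bp). Neuronal genes had 3 of 23 (13.0%): the adhesion molecule gene Fas2 (450.2, at 5 bp), the syntaxin gene Syx1A (365.6, at 73 bp) and the Slit ligand gene sli (286.8, at 61 bp). Signalling genes had 5 of 39 (12.8%), against 15 upstream, with the JAK/STAT transcription factor gene Stat92E (552.3, at 349 bp) ahead of the Wnt receptor gene fz2 (282.8, at 53 bp), rho (251.6, at 29 bp) and arm, the beta-catenin gene (223.7, at 113 bp).

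Developmental transcription factor genes had 3 of 94 (3.19%), against 14 (14.9%) upstream. They were hry (357.6, at 69 bp), da (216.5, at 41 bp) and bowl (203.8, at 491 bp), all among the weaker members apart from hry. Translation factor genes had 2 of 31, eIF4E1, the cap-binding protein gene (838.9, at 4 bp), and eEF1alpha1 (510.6, at 37 bp). Single genes were found for chaperones (stv, 247.1, at 126 bp, 1 of 16), the cell cycle (Dp, an E2F partner, 984.3, at 415 bp, 1 of 17) and glycolysis (Pgk, 212.1, at 360 bp, 1 of 11, against 8 upstream). Cuticle protein genes had 0 of 108 (up to 3.36%) and chemosensory receptor genes 0 of 155 (up to 2.35%), and neither list had an upstream-summit peak.

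**Figure D5:**
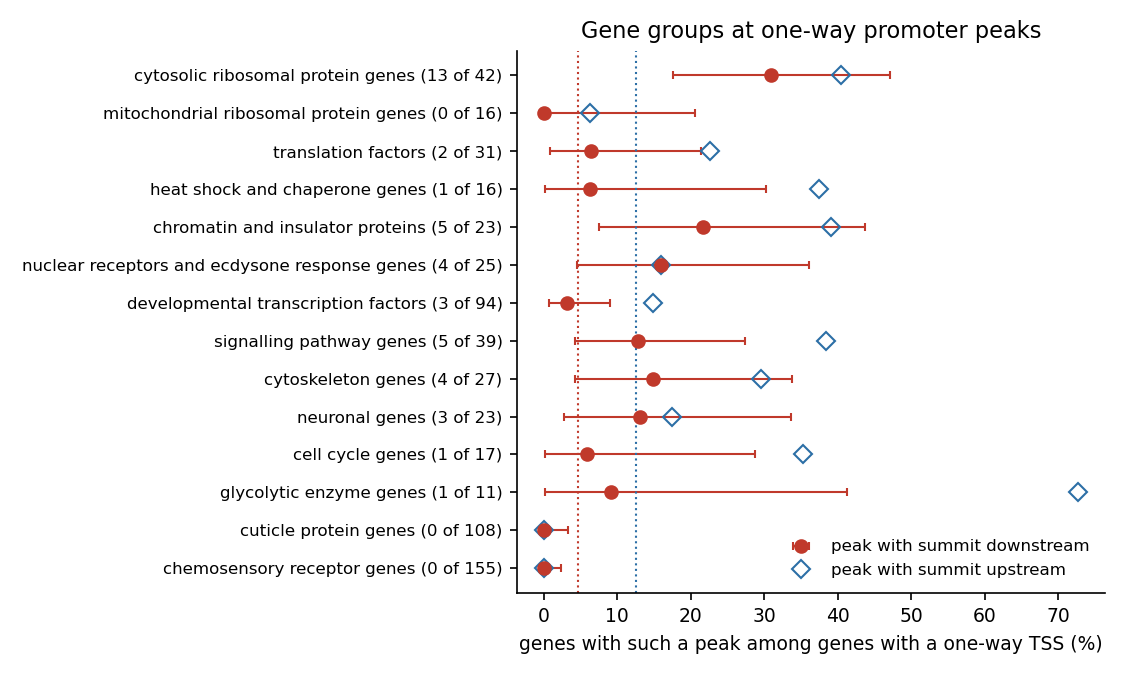
Share of the genes with a one-way TSS in each of 14 lists that had a downstream-summit peak (red points, with exact 95% intervals and counts beside the names) or an upstream-summit peak (blue diamonds), in percent. Dotted lines mark the shares over all 9655 such genes, 4.62% downstream and 12.6% upstream; ribosomal protein genes have the highest downstream share, 31.0%.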

How the data were processed

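ChIP-seq regions of 3 biological replicates were used as deposited. Per the labels, the authors called each replicate's list with 1 control, made a pooled list and derived the IDR (irreproducible discovery rate) set from them. The deposited signal column is the authors' value per region, with a scale that differs between lists, and the deposited summit offset gives the summit's position within the region, in bp. Each list holds 30000 regions; the IDR set equals the 6565 strongest pooled regions. The control libraries are not analysed here. The aligner, caller and IDR cutoff were not given in the sources used here. Read depth is unknown, so intervals (Clopper-Pearson, 95%) cover counting error over peaks or genes only.

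Coordinates are dm6, 1-based. TSSs (19607, of 13945 protein-coding genes) came from Ensembl release 115 for the same assembly, and sequence from RefSeq. Replicate signal was divided by the list's median. Each class comparison over replicates took class medians or means from the strongest 6565 regions per list, paired by replicate, with an exact sign-flip permutation test, which cannot go below p = 0.25. Word ratios were taken after adding 0.5 to both counts. The calculation of classes, distances and overlaps was tested on simulated data. Python 3.11.15, numpy 2.4.6, scipy 1.17.1, pandas 2.3.3 and matplotlib 3.10.9 were used.

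Named genes are those at the 25 strongest peaks, up to 4 of the strongest per list, at the thresholds, and at the 10 strong peaks farthest downstream; sequences are from the strongest peaks and from those with a leading word. The members and gene lists were chosen with earlier results of these data known. In the lists, 10 names were matched to a newer symbol, and the ribosomal protein list is a name pattern that also takes in related copies. Alternatives varied the TSS window, opposite-TSS window, TSS choice, minimum distance, summit, overlap rule, peak strength and each replicate.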

Additional observations from a re-analysis of the deposited data

How the results depend on the processing

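Apart from the motif differences of DRE and GGTCACAC, no value below changed direction under any alternative run. Keeping the stronger 50% of the peaks left 168 members, a downstream share of one-way peaks of 16.9%, a median distance of 116.5 bp, a signal ratio to upstream-summit peaks of 0.797 (0.695 in the whole set), 89.9% held in every replicate, an intron share of 32.1%, a GC content of 40.3% and a GC difference from upstream-summit peaks of 7.64 percentage points (8.05 in the whole set). With a TSS window of 250 bp, the share was 29.8%, the distance 56 bp, the intron share 10.8% and GC content 44.3%; with 1000 bp, these were 28.9%, 182.5 bp, 43.7% and 40.2%, the signal ratio was 0.767 and the GC difference 5.54. Only the most 5′ TSS of each gene gave a share of 29.1%, an intron share of 21.7% and a GC difference of 8.38. Members at 25 bp or more had a distance of 102 bp, an intron share of 27.4%, a GC content of 42.3% and a GC difference of 8.35. Summits at the middle of the peak gave a GC difference of 8.50, and a 100 bp GC window 7.08. In regions of the commonest width, 436 bp, such as those at RpS3 and lace, the deposited summit is already the middle. The middle-of-peak setting could therefore change little there. The held share was 56.3% with any overlap and 29.0% with 80% covered. Leaving out 1 replicate meant keeping only the pooled peaks held in both other replicates. The pooled summits and signals still hold the reads of the replicate left out. This gave ranges of 280 to 300 members, 21.96 to 22.23% for the share, 0.708 to 0.730 for the ratio and 58.3 to 62.5% held. It also gave 25.8 to 29.3% in introns, 41.8 to 42.5% GC and a GC difference of 7.61 to 8.47. Narrower and wider opposite-TSS windows gave 573 and 379 members and moved none of the other values beyond the spread between replicates. The TCAGT share at member summits, 22.7% in the whole set, was 16.7% in the stronger 50% of the peaks and 18.3% without replicate 1. Motif shares at member summits also moved with the window, as a wider window holds more matches: TATAAA was in 23.1% with 100 bp to either side and 6.25% with 25 bp. Its difference from upstream-summit peaks was -12.3 and -5.35 percentage points, against -12.2 with 50 bp. DRE, at -0.824 with 50 bp, was at 0.588 with 100 bp, and GGTCACAC, at -0.119, was at 0.121 with 25 bp and 1.57 with 100 bp. GC, width and motif-difference settings were chosen after seeing the data. The cause of these shifts was not tested.

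No paired analysis was possible because the series holds 1 group, so replicate numbers pair no samples across groups; classes within a replicate were paired in the tests. The depth of the libraries is unknown, and the peaks near the threshold of the reproducible set are those least often held. A summit can lie on either side of the TSS well beyond 27.1 bp, the median SD over replicates. Among members with a region in every replicate, 63.6% at 0 to 49 bp had every replicate summit downstream. This share was 87.5% at 50 to 99 bp and 85.7% at 100 to 199 bp, and it reached 100% only from 200 bp on.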
